A study of Mus musculus with 24 samples.

Results

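The livers of mice given extracellular vesicles (EVs, membrane particles that cells release) of a breast cancer cell line were compared with those of mice given EVs of a non-tumorigenic breast cell line. The libraries were chosen by their treatment label: 6 labelled MDA-MB-231 EV and 6 labelled MCF10A EV, 12 of the 24 in the series. MDA-MB-231 is a human line from a metastatic breast cancer, and MCF10A is a human line of immortalised breast epithelium. The recipients were female NSG mice, an immunodeficient strain that lacks mature T, B and natural killer cells, 8 weeks old. All 12 received about 10 µg of EVs into a tail vein at each of 2 injections a week for 5 weeks, so neither group is untreated, and liver RNA was taken 2 days after the last injection. The other 12 libraries are 6 of mice injected with PBS on the same schedule and 6 labelled MCF10A/miR-122 EV. The labels do not state that each library is a separate mouse, and p-values then measure only the spread between these libraries. The human vesicles were given to a mouse host without an adaptive immune system, and the hour at which each liver was taken is not given in the sources used here.

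Library names and treatment labels contradict each other for 12 libraries. The 6 libraries labelled MDA-MB-231 EV are named for miR-122, in part together with 10A, whereas the names of the 6 labelled MCF10A/miR-122 EV point to MDA-MB-231. The names of the MCF10A EV libraries, 10A-pBABE, match their label. Groups are called here by their labels, and the value for the libraries named for MDA-MB-231 against MCF10A EV is given beside the results. The numbers in the library names add a further limit: PBS and MCF10A EV hold the first 12 numbers, and the other two groups the last 12. MDA-MB-231 EV and MCF10A EV share no number range, so treatment and number range cannot be told apart in this comparison. A second test therefore took the difference between MDA-MB-231 EV and MCF10A EV less that between MCF10A/miR-122 EV and PBS. Both differences cross the number ranges, and a shift common to them cancels on the log scale. An effect that MDA-MB-231 EV and MCF10A/miR-122 EV share cancels as well, and a difference of MCF10A EV from PBS enters with its sign turned.

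Between the 2 groups 1058 of 13773 genes tested passed an adjusted p of 0.05, which is 7.68%: 446 were higher with MDA-MB-231 EV (3.24%) and 612 lower (4.44%). The median log2 fold change (called log2 ratio below, MDA-MB-231 EV over MCF10A EV) of all genes was -2e-04, and the median size of the called changes was 0.47 on the log2 scale. For 696 genes (5.05%) the 6 values of one group did not overlap the 6 of the other, and 572 of them were among the called genes. A change of at least 2-fold was reached by 163 called genes, 49 higher and 114 lower. Without MCF10A EV replicate 1 the higher genes numbered 259, and without MCF10A EV replicate 4 they numbered 272. With the libraries named for MDA-MB-231 in place of those labelled MDA-MB-231 EV, 2237 genes passed. The second test called 13 genes (0.0944%), 3 above and 10 below 0, with 1469 at an unadjusted p under 0.05. That count fell to 8 without MCF10A EV replicate 6 and to 8 without MDA-MB-231 EV replicate 5. Totals were 29.2 to 32 M counts in the MDA-MB-231 EV libraries and 21.3 to 29.3 M in the MCF10A EV libraries. Albumin (Alb), the main secreted protein of hepatocytes, was at 77100 to 94100 CPM (counts scaled to the library's total) in the 12 libraries, and Il2rg, the cytokine receptor gene disrupted in NSG mice, had 0 to 6 counts.

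The genes of the circadian clock held the largest called shares among the gene lists that had at least 5 tested members. In liver, as in other tissues, BMAL1 (encoded by Arntl) pairs with CLOCK or NPAS2 and switches on genes that carry E-boxes, among them Per, Cry, Nr1d and Ciart, whose proteins in turn repress BMAL1 activity or Arntl transcription. Dbp, Tef and Hlf encode factors that bind D-boxes and carry the rhythm on to metabolic genes, and receptors of the ROR and REV-ERB families act on ROR elements such as those near the Arntl start. Arntl and the Per and Dbp genes peak at opposite times of day in liver.

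The promoters of 5 called genes are shown because their letters hold these 3 elements. They run from 250 bases before to 50 bases after a transcription start in RefSeq (GRCm38.p6), another build than that of the deposited counts. Capitals mark the E-box CACGTG, the D-box TTATGNAA or the ROR element (AAN followed by TAGGTCA), each searched on both strands. Ciart, listed as Gm129 in the counts, lies at chr3:95882179-95882478 on the minus strand and holds 3 E-boxes, Per1 at chr11:69098699-69098998 on the plus strand holds 1 E-box and 1 D-box, and Per3 at chr4:151044616-151044915 on the minus strand holds 2 D-boxes. Arntl at chr7:113207261-113207560 on the plus strand holds 1 ROR element, and Coq10b at chr1:55052520-55052819 on the plus strand holds 1 E-box and 1 D-box.
Ciart: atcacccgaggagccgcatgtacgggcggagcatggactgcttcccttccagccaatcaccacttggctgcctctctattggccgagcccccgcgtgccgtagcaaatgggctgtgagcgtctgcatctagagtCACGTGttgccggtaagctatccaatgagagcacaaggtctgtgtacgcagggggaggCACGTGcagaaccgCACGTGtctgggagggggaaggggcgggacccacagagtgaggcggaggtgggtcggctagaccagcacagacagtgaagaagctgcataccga
Per1: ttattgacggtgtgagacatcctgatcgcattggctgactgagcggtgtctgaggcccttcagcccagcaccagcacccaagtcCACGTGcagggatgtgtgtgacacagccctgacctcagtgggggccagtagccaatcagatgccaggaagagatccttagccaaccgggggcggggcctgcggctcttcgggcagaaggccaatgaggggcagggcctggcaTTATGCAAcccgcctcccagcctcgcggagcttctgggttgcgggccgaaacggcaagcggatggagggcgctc
Per3: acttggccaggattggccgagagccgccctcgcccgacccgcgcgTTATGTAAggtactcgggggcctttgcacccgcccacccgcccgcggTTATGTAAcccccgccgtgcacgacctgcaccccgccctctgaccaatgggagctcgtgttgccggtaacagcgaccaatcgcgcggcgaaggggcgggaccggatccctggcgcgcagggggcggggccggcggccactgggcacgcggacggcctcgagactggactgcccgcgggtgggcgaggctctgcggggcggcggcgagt
Arntl: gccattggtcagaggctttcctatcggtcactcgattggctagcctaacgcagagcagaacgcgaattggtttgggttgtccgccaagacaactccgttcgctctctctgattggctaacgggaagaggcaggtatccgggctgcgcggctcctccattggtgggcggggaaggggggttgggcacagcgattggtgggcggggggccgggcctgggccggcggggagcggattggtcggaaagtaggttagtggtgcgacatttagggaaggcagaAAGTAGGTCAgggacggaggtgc
Coq10b: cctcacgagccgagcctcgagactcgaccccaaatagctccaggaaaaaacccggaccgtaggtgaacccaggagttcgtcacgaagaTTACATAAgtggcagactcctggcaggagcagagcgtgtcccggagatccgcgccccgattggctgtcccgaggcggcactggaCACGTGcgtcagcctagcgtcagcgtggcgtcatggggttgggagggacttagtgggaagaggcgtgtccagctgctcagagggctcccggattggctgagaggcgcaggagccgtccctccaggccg
Of the 32851 promoter windows of this length in the table, 7.15% held the E-box, 3.38% the D-box and 0.219% the ROR element. A promoter was found for 23 of the 29 tested genes of the clock lists, and 5 of them held the E-box, 3 the D-box and 1 the ROR element. Some have several starts: of their 33 windows, 6 held the E-box, 3 the D-box and 1 the ROR element. Of those with a promoter, the D-box stood in 3 of the 12 higher genes and in none of the 3 lower ones, and the E-box in 3 of the 12 higher and 1 of the 3 lower genes. A match of letters is no binding site by itself, and Coq10b belongs to neither clock list.

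Of the activators, Arntl and Npas2 fell and Clock did not pass the test. Arntl ran from 13 to 30.2 CPM with a median of 18 in the MCF10A EV libraries and from 2.23 to 4.61 CPM with a median of 3.62 in the MDA-MB-231 EV libraries. The groups did not overlap, and the log2 ratio was -2.49 ± 0.39 (SE; adjusted p = 1.88e-04). Npas2, the partner that can stand in for CLOCK, was at 1.72, 3.96 and 12.1 CPM (lowest, median and highest) against 0.191, 0.295 and 0.473 CPM. Every MDA-MB-231 EV library lay below every MCF10A EV library, with a log2 ratio of -4.0 ± 0.77 (SE; adjusted p = 0.00178). Clock itself, at medians of 33.3 and 27.5 CPM, had a log2 ratio of -0.43 ± 0.17 (SE; adjusted p = 0.131). The libraries named for MDA-MB-231 gave log2 ratios of -2.91 for Arntl, -4.62 for Npas2 and -0.58 for Clock, and the last of these passed the test (adjusted p = 0.0243).

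Of the repressors, the 3 Per genes, Cry2, Nr1d1, Nr1d2 and Bhlhe40 were called higher and Cry1 did not pass. Per3, a period gene whose promoter holds the D-box pair shown above, was at 3.32, 7.94 and 14.5 CPM (lowest, median and highest) with MCF10A EV and at 26.5, 42.8 and 58.4 CPM with MDA-MB-231 EV. The groups were apart in every library, by a log2 ratio of 2.30 ± 0.43 (SE; adjusted p = 0.00129). Per2, at medians of 17.5 and 43.7 CPM, rose by 1.37 ± 0.29 on the log2 scale (SE; adjusted p = 0.00422), again with no overlap. Per1, at medians of 20.5 and 59 CPM, rose by 1.5 ± 0.41 (SE; adjusted p = 0.0243), and lost the call without MCF10A EV replicate 1, 4 or 5 (adjusted p up to 0.0605). Smaller rises were found in Bhlhe40 (0.91), a transcriptional repressor, in Nr1d2 (0.90), which encodes REV-ERB beta, and in the cryptochrome gene Cry2 (0.55). Nr1d1, which encodes REV-ERB alpha, was at 79.1 to 138 CPM and 115 to 150 CPM, so the groups overlapped, and its rise of 0.51 (adjusted p = 0.0457) was lost without any single library other than MCF10A EV replicate 6 and MDA-MB-231 EV replicate 5. Cry1 had a log2 ratio of -0.54 (adjusted p = 0.163). In the libraries named for MDA-MB-231 Per1, Per2 and Per3 stood 1.79, 1.58 and 2.36 above MCF10A EV on the log2 scale, but Nr1d1 stood at -0.04.

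Most clock outputs moved up with the repressors. Gm129 (Ciart), a repressor of the CLOCK-BMAL1 pair, was at 0.655, 1.1 and 3.15 CPM (lowest, median and highest) with MCF10A EV and at 10.3, 15.8 and 27.7 CPM with MDA-MB-231 EV, a log2 ratio of 3.53 ± 0.47 (SE; adjusted p = 2.22e-05). Its transcripts share 20.3% of their 32-base words with another gene, so its counts are uncertain. Dbp was at 2.2, 12.9 and 23.9 CPM against 79.7, 88.6 and 127 CPM, a log2 ratio of 2.87 ± 0.53 (SE; adjusted p = 0.00129). Neither gene overlapped between the groups, and for Dbp the MCF10A EV libraries spread more widely on the log scale. Usp2, a deubiquitinating enzyme gene, had medians of 2.93 and 17.3 CPM (log2 ratio 2.42 ± 0.36, SE; adjusted p = 8.90e-05), and Wee1, the kinase that restrains entry into mitosis, had medians of 1.92 and 6.77 CPM (2.0 ± 0.35; adjusted p = 7.49e-04). Tef rose from a median of 74.6 to 166 CPM (1.29 ± 0.23; adjusted p = 8.24e-04), Nampt by 0.76 and Hlf by 0.57. Ccrn4l, which encodes the deadenylase-related protein nocturnin, rose by 1.36 (adjusted p = 0.0379) with 36.2% of its words shared, so its counts are uncertain too, and Lonrf3 fell by 0.88 (adjusted p = 0.0372). Ccrn4l lost its call without MCF10A EV replicate 1, 2, 3 or 5 or MDA-MB-231 EV replicate 2, 3 or 4, and Lonrf3 without MCF10A EV replicate 3 or 4 or any MDA-MB-231 EV library. With the libraries named for MDA-MB-231 the log2 ratios were 4.31 for Gm129, 3.07 for Dbp, 3.65 for Usp2, 2.65 for Wee1 and 1.52 for Tef, and -0.69 for Lonrf3, which did not pass there (adjusted p = 0.067).

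**Figure D1:**
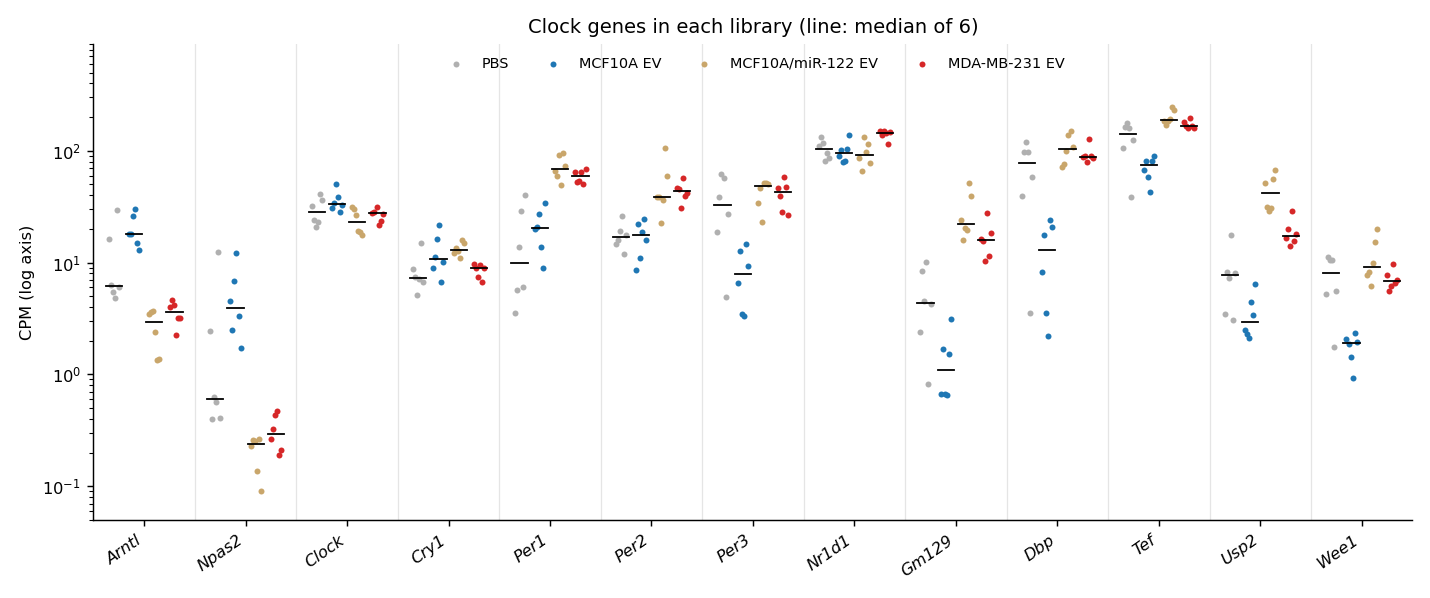
CPM (log axis) of 13 clock genes in every library of the 4 treatment labels, 6 points each, with the median as a line. Red MDA-MB-231 EV points lie apart from blue MCF10A EV points for Arntl, Npas2, the 3 Per genes, Gm129, Dbp, Tef, Usp2 and Wee1, and overlap them for Clock, Cry1 and Nr1d1.

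Counted over the lists, 7 of 16 tested members of the clock loop were higher and 2 lower, with a median log2 ratio of 0.18, and 8 of 13 clock outputs were higher and 1 lower, with a median of 0.76. The called share was 56.2% of the loop and 69.2% of the outputs, beside 7.68% of all genes. Rora, Csnk1d and Csnk1e were among the loop members that did not pass, with log2 ratios of 0.04, -0.08 and 0.05. Nfil3, Tsc22d3, Por and Pnpla2 were the outputs that did not pass, at -0.78, 0.64, 0.45 and 0.10. With the libraries named for MDA-MB-231 10 loop members and 11 outputs were called. The second test, which also cancels an effect shared by MDA-MB-231 EV and MCF10A/miR-122 EV, called no clock gene. Its values were 2.23 for Dbp (adjusted p = 0.256), 1.99 for Per3 (adjusted p = 0.24) and -0.40 for Arntl (adjusted p = 0.832). Within the last 12 numbers, MDA-MB-231 EV against MCF10A/miR-122 EV gave log2 ratios of -0.20 for Dbp, -0.06 for Per3 and 0.42 for Arntl, and none passed. Within the first 12 numbers, MCF10A EV against PBS gave -2.43 for Dbp (adjusted p = 0.0251), -2.05 for Per3 (adjusted p = 0.0192) and 0.82 for Arntl (adjusted p = 0.241). The part of the number range in these differences cannot be told apart from that of the treatment. PBS itself spread widely: 3.57 to 118 CPM for Dbp (median 77), 4.88 to 62.1 for Per3 (median 32.7) and 38.6 to 175 for Tef (median 142). Npas2 ran from 0.399 to 12.4 CPM in PBS (median 0.597). For these genes the PBS range met those of both groups. PBS stayed apart from MDA-MB-231 EV for Arntl (4.79 to 29.6 CPM), Per1 (3.56 to 39.8 CPM) and Gm129 (0.827 to 10.1 CPM).

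Ppp1r3g, which targets a phosphatase to glycogen and promotes glycogen synthesis, was at 0.646, 7.03 and 9.94 CPM (lowest, median and highest) with MCF10A EV and at 17.9, 21 and 35.6 CPM with MDA-MB-231 EV. All MDA-MB-231 EV libraries were higher, by a log2 ratio of 2.02 ± 0.55 (SE; adjusted p = 0.0258), which was lost without MCF10A EV replicate 2 (adjusted p = 0.0581) or MDA-MB-231 EV replicate 6 (adjusted p = 0.0556). Its relative Ppp1r3c went the other way, from a median of 59.2 to 32.7 CPM (-1.18 ± 0.36, SE; adjusted p = 0.0443), also without overlap. That fall lost its call without any single library other than MCF10A EV replicate 1, 2 or 6, up to an adjusted p of 0.138. Gys2, the glycogen synthase of liver, rose from a median of 85.5 to 145 CPM (0.78 ± 0.19, SE; adjusted p = 0.0116). With Gsk3b, a kinase that inhibits glycogen synthase and rose by 0.29, 3 of 12 tested glycogen genes were higher and 1 was lower. The called share was 33.3%, beside 7.68% of all genes, and 2 were called without MDA-MB-231 EV replicate 6. The libraries named for MDA-MB-231 gave 2.92 for Ppp1r3g, -1.75 for Ppp1r3c and 0.87 for Gys2. Ppp1r3g was at 0.863 to 8.62 CPM with PBS and at 20.7 to 128 CPM with MCF10A/miR-122 EV, so its gap followed the library numbers. Within each number range no difference of Ppp1r3g, Ppp1r3c or Gys2 passed.

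In glucose uptake and glycolysis 2 of 20 members were higher and none lower, a called share of 10% near the 7.68% of all genes, and the list's median was -0.13. Pfkfb3, whose enzyme makes fructose 2,6-bisphosphate, an activator of glycolysis, was at 4.18, 8.23 and 10.1 CPM (lowest, median and highest) against 16.5, 19.1 and 26.5 CPM, a log2 ratio of 1.44 ± 0.24 (SE; adjusted p = 4.40e-04). Slc2a2, the main glucose transporter of hepatocytes, rose by 0.47. In gluconeogenesis 2 of 17 were higher, 11.8% called: Tat, tyrosine aminotransferase, with medians of 1290 and 2540 CPM and no overlap (0.95 ± 0.23, SE; adjusted p = 0.0131), and Klf15, a transcription factor of amino acid catabolism (0.57; adjusted p = 0.00802). Pck1, the key enzyme of gluconeogenesis, had a log2 ratio of 0.58 (adjusted p = 0.209). Its lowest MCF10A EV library was at 898 CPM and its highest at 3980 CPM, a range that took in part of the MDA-MB-231 EV libraries (3570 to 4450 CPM). Called members of gluconeogenesis numbered 4 without MCF10A EV replicate 3 and 6 with the libraries named for MDA-MB-231, where Pfkfb3 and Tat stood 1.48 and 1.20 above MCF10A EV. Pfkfb3, Tat and Klf15 also followed the library numbers. PBS reached 11.9, 1670 and 155 CPM, and the lowest MCF10A/miR-122 EV libraries were at 14.7, 2040 and 216 CPM. Within each number range no difference of these genes passed.

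Among lipid genes, Thrsp, which encodes the lipogenic protein Spot 14, was at 44.1, 149 and 206 CPM (lowest, median and highest) against 194, 405 and 710 CPM. The groups overlapped at their edges, and the log2 ratio was 1.57 ± 0.35 (SE; adjusted p = 0.00681). Dgat2, the enzyme of the last step of triglyceride synthesis, rose by 0.26. These were the 2 of 18 lipogenic genes called (11.1%, near the 7.68% of all genes). Of 22 genes of cholesterol synthesis and LDL uptake none was higher and 1 was lower (4.55% called). Insig2, which retains the SREBP pathway in the endoplasmic reticulum, fell by 0.68, although the list's median was 0.36. No gene of 37 in oxidative phosphorylation and none of 14 of lipid droplets and lipases passed. Irs1, an adaptor of the insulin receptor, rose from a median of 35.1 to 43.7 CPM (0.42; adjusted p = 0.0114). It was the only called gene of 14 in the insulin list (7.14%), and with the libraries named for MDA-MB-231 its 0.25 did not pass. Thrsp was 1.96 higher in the libraries named for MDA-MB-231.

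Among the largest called changes outside these lists were Coq10b, Upp2 and Dnmt3b. Coq10b, a coenzyme Q binding protein gene whose promoter is printed above, was at 10.3, 19.5 and 26.7 CPM (lowest, median and highest) and 41.7, 54.1 and 75.1 CPM, a log2 ratio of 1.57 ± 0.24 (SE; adjusted p = 1.60e-04). Upp2, a uridine phosphorylase of liver, rose from a median of 124 to 324 CPM (1.45 ± 0.23; adjusted p = 2.56e-04). Dnmt3b, a DNA methyltransferase gene, fell from a median of 6.72 to 1.94 CPM (-1.83 ± 0.26; adjusted p = 5.21e-05). None of these 3 genes overlapped between the groups. In the libraries named for MDA-MB-231 they stood at 2.04, 1.85 and -1.94. Coq10b and Dnmt3b followed the library numbers. PBS was at 8.45 to 31.7 and 2.86 to 8.58 CPM, and MCF10A/miR-122 EV at 64.1 to 96 and 1.22 to 2.36 CPM. Within each number range no difference of the 3 genes passed. Dnmt3b shares 13.2% of its 32-base words with another gene.

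Against MCF10A EV, cell cycle genes were higher in a few members, and the cell cycle inhibitor Cdkn1a (p21) was lower. Ccnd1, cyclin D1 of the G1 phase, was at 26, 35 and 46.2 CPM (lowest, median and highest) with MCF10A EV and at 50.5, 66.8 and 98.1 CPM with MDA-MB-231 EV, apart in every library (0.98 ± 0.18, SE; adjusted p = 0.00127). Ccne1, cyclin E1 of the entry into S phase, had medians of 0.376 and 0.99 CPM (1.82 ± 0.39; adjusted p = 0.00465). The mitotic genes Ccnb2 and Top2a each rose by 1.26 from levels near or below 1 CPM (adjusted p = 0.0342 and 0.0381), and each lost its call in 9 of the 12 fits that left out 1 library. Ccnb2 kept it without MCF10A EV replicate 6 or MDA-MB-231 EV replicate 4 or 5, and Top2a without MCF10A EV replicate 1 or 4 or MDA-MB-231 EV replicate 3. These 4 were the called members among 30 tested, 13.3% beside 7.68% of all genes, 26 of the 30 had a positive value and the median was 0.39. DESeq2 called 7 members, the fit of the 12 libraries alone 7, and the fits without 1 library 2 to 5, with 2 left without MCF10A EV replicate 2 or 3 and without MDA-MB-231 EV replicate 1 or 2. The libraries named for MDA-MB-231 gave 7. PBS medians were 92.1 CPM for Ccnd1, 0.888 for Ccne1, 0.852 for Ccnb2 and 1.7 for Top2a, all above those of MCF10A EV. MCF10A EV against PBS was called for Ccnd1 (-1.27; adjusted p = 0.00328) and Top2a (-1.62; adjusted p = 0.033). It did not pass for Ccne1 (-1.19) and Ccnb2 (-1.14).

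Cdkn1a ran from 5.32 to 59.7 CPM with a median of 24 with MCF10A EV and from 3.11 to 8.23 CPM with a median of 4.85 with MDA-MB-231 EV. Only the lowest MCF10A EV library lay within the other range, and the log2 ratio was -2.53 ± 0.59 (SE; adjusted p = 0.00931). PBS ran from 2.2 to 34.4 CPM with a median of 4.8, near that of MDA-MB-231 EV. MCF10A EV against PBS gave 1.71 for Cdkn1a and did not pass (adjusted p = 0.135). Foxa2, a pioneer factor of hepatocytes, fell from a median of 37.7 to 18.2 CPM without overlap (-1.21 ± 0.19; adjusted p = 1.65e-04). Onecut1, which encodes HNF6, fell from a median of 14.7 to 5.63 CPM with overlap (-1.5; adjusted p = 0.034), lost its call without any library other than MCF10A EV replicates 3, 4 and 6 and MDA-MB-231 EV replicate 2, and shares 52.9% of its 32-base words with another gene. With Nr2f2, higher by 0.33, these were the called members of 17 hepatocyte transcription factors (17.6%, beside 7.68% of all genes). Without MCF10A EV replicate 1, or MDA-MB-231 EV replicate 3, 4, 5 or 6, 1 of them was left. In the libraries named for MDA-MB-231 Ccnd1, Ccne1, Cdkn1a and Foxa2 stood at 0.82, 2.34, -2.23 and -0.97, while Onecut1 at -0.76 did not pass.

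**Figure D2:**
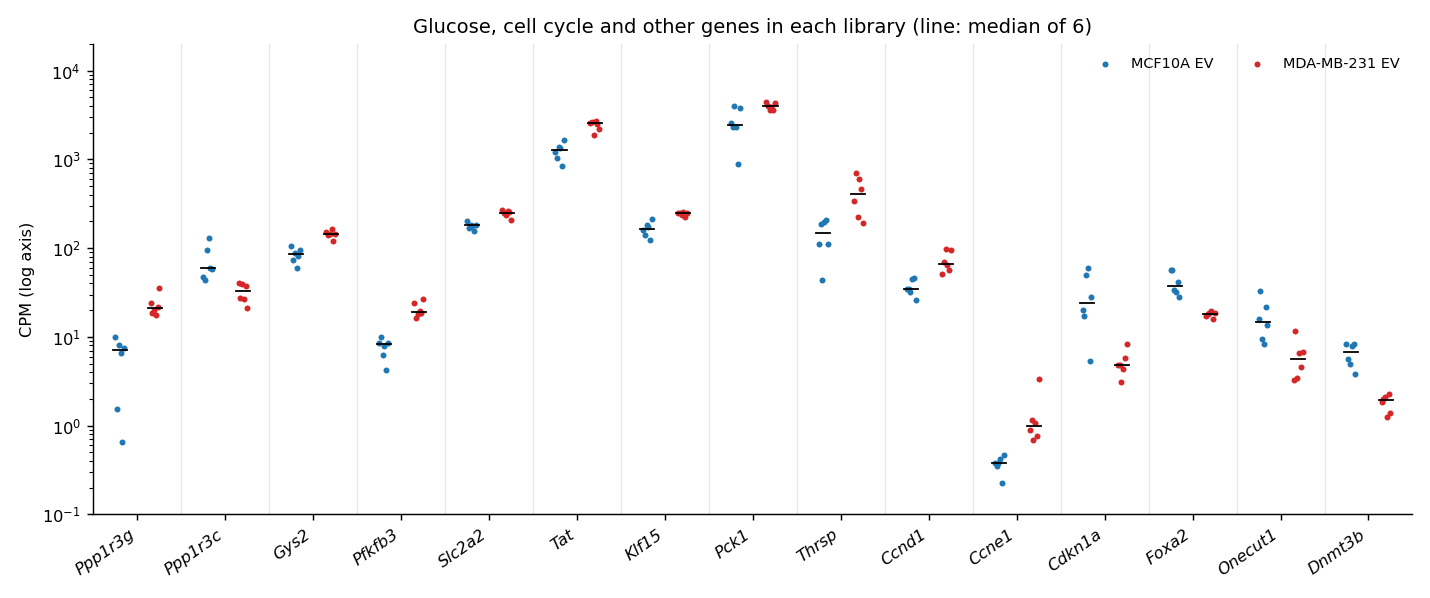
CPM (log axis) of 15 genes in the 6 libraries labelled MCF10A EV and the 6 labelled MDA-MB-231 EV, with the median as a line. Ppp1r3g, Gys2, Pfkfb3, Tat and Ccnd1 are higher and Ppp1r3c, Foxa2 and Dnmt3b lower in every MDA-MB-231 EV library, whereas Pck1, Thrsp, Cdkn1a and Onecut1 overlap. PBS and MCF10A/miR-122 EV are not drawn.

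Of 36 genes of xenobiotic receptors and enzymes 4 were higher and 2 lower (16.7% called, beside 7.68% of all genes), with a median of 0.12. Cyp2a5, the coumarin hydroxylase of mouse liver, was at 196, 364 and 466 CPM (lowest, median and highest) against 715, 948 and 1410 CPM (1.53 ± 0.26, SE; adjusted p = 5.38e-04), and Cyp2a4, a testosterone hydroxylase more abundant in females, had medians of 339 and 789 CPM (1.08 ± 0.28; adjusted p = 0.0167). They share 53.5% and 56.9% of their 32-base words with other genes, so their counts cannot be assigned to one gene with certainty. The conjugating enzyme genes Ugt1a1 and Ugt2b1 rose by 0.26 and 0.36, whereas Cyp3a16 and Arnt, the partner of the aryl hydrocarbon receptor, fell by 0.37 and 0.36. Within the first 12 numbers, the log2 ratio of Cyp2a5 between MCF10A EV and PBS was -1.37 (adjusted p = 0.0144), and within the last 12 that between MDA-MB-231 EV and MCF10A/miR-122 EV was -0.94 (adjusted p = 0.155). For Cyp2a4 the same 2 ratios were -1.30 (adjusted p = 0.0221) and -0.79 (adjusted p = 0.363). PBS medians were 763 CPM for Cyp2a5 and 817 CPM for Cyp2a4, above those of MCF10A EV. Cyp4a12a, a male-biased gene, was at medians of 4.03 and 8.5 CPM with overlap (1.46; adjusted p = 0.0284). It shares 61.4% of its 32-base words with other genes and is equally uncertain, and it lost its call without MCF10A EV replicate 1, 2, 4 or 5 or MDA-MB-231 EV replicate 2 or 6, the highest adjusted p being 0.113. It did not pass with the libraries named for MDA-MB-231 (0.44), whereas Cyp2a5 stood at 2.47 there.

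The acute phase list, secreted proteins that liver makes in inflammation, had 1 of 35 members higher and 2 lower (8.57% called, near the 7.68% of all genes). Saa1, serum amyloid A, was at 25.4, 37.3 and 53.7 CPM (lowest, median and highest) with MCF10A EV and at 23.2, 33 and 80.6 CPM with MDA-MB-231 EV. The ranges overlapped, and the log2 ratio was -0.03 ± 0.28 (SE; adjusted p = 0.967). Saa2 and Saa3 gave 0.13 and 0.09 and did not pass either. Lcn2, a siderophore-binding protein of the acute phase, fell from a median of 21.8 to 10.1 CPM with overlap (-0.81 ± 0.22; adjusted p = 0.027), and lost its call without MCF10A EV replicate 4 or MDA-MB-231 EV replicate 1, 2, 4 or 5. PBS had a median of 8.27 CPM for Lcn2, and MCF10A EV stood above PBS by 1.23 (adjusted p = 0.0131). The libraries named for MDA-MB-231 differ here: Saa1 was at 339, 552 and 824 CPM, 3.84 above MCF10A EV on the log2 scale (adjusted p = 5.76e-09), and Saa2, Saa3 and Lcn2 stood at 4.05, 4.13 and 0.69. The direction for Lcn2 and the size for the Saa genes thus change with the set of libraries taken as MDA-MB-231 EV. Saa1 and Saa2 share 45.7% and 43.4% of their 32-base words with other genes.

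Of the 13 genes called in the second test, 5 were also called between the 2 groups: Lcn2, Sema6b, Ccnd1, Abcd2 and Taf10. Saa1, at -4.42 (adjusted p = 9.70e-07), Saa2, Saa3, Hp and Orm2 were called in the second test alone, with MCF10A/miR-122 EV as the high group for the Saa genes. Ccnd1 gave 1.44 (adjusted p = 0.0135): it was at 66.4, 92.1 and 98.6 CPM with PBS, above the 26 to 46.2 CPM of MCF10A EV, and at 39.7 to 84 CPM with MCF10A/miR-122 EV. Abcd2, a peroxisomal transporter of fatty acids, had medians of 82.6 CPM in PBS, 37.6 in MCF10A EV, 52.6 in MCF10A/miR-122 EV and 55.9 in MDA-MB-231 EV, and a value of 1.33 in the second test (adjusted p = 0.0249). Its rise of 0.64 between the 2 groups (adjusted p = 0.0272) was lost without MCF10A EV replicate 2 or 5 or MDA-MB-231 EV replicate 3 or 4. For both genes MCF10A EV was the lowest group by median. Sema6b, a transmembrane semaphorin gene, and Taf10, a subunit of TFIID, gave -0.95 (adjusted p = 0.00714) and -1.17 (adjusted p = 0.0302), with MDA-MB-231 EV at medians of 3.5 and 16.3 CPM below the 4.54 and 25.2 CPM of MCF10A EV. PBS had medians of 3.31 and 15.8 CPM, near those of MDA-MB-231 EV. MCF10A EV stood above PBS by 0.52 for Sema6b (adjusted p = 0.0255) and by 0.65 for Taf10 (adjusted p = 0.0474). Against MCF10A EV the libraries named for MDA-MB-231 gave 0.82 for Ccnd1 and 0.51 for Abcd2, both called, and -0.06 for Sema6b and -0.12 for Taf10, which did not pass.

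Reported targets of miR-122, the abundant microRNA of hepatocytes, were compared because the library names assign it to the group labelled MDA-MB-231 EV. Of 35 tested 4 were lower and none higher (11.4%, beside 7.68% of all genes), with a median of 0.01. Smarcd1, a chromatin remodelling subunit gene, fell from a median of 5.86 to 3.83 CPM (-0.62 ± 0.13, SE; adjusted p = 0.00296), Gys1, glycogen synthase of muscle, from 2.74 to 1.82 CPM (-0.55 ± 0.12; adjusted p = 0.00557), and Hfe2, hemojuvelin of iron sensing, from 52.9 to 31.7 CPM (-0.87 ± 0.20; adjusted p = 0.00759). Bckdk, a kinase of branched-chain amino acid breakdown, fell by 0.45. Smarcd1 and Gys1 did not overlap between the groups and Hfe2 did. In the libraries named for MDA-MB-231 Smarcd1 and Hfe2 stood at -0.67 and -0.91 against MCF10A EV and both were called, whereas Gys1 at -0.29 did not pass (adjusted p = 0.099). Within the last 12 numbers MDA-MB-231 EV differed from MCF10A/miR-122 EV by 0.05 for Smarcd1, -0.26 for Gys1 and 0.05 for Hfe2, none of which passed.

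The largest falls parted the first from the last 12 numbered libraries. Serpina3a, of the serpin protease inhibitors, was at 128, 170 and 325 CPM (lowest, median and highest) with MCF10A EV and at 0.467, 2.6 and 5.85 CPM with MDA-MB-231 EV, a log2 ratio of -6.07 ± 0.58 (SE; adjusted p = 1.04e-07). PBS was at 110 to 298 CPM and MCF10A/miR-122 EV at 0.285 to 4.92 CPM, so the gap followed the numbers in all 4 groups. Serpina3b had 22 to 428 counts with MCF10A EV and 1 to 5 with MDA-MB-231 EV, and Ptcra, a thymocyte receptor chain, had 51 to 143 against 0 to 1. Acta1, skeletal actin, was at medians of 4.47 and 1.41 CPM, and Hist1h2ak, a replication-dependent histone gene with 69.3% of its 32-base words shared, at 6.11 and 0.539 CPM. Histones had 9 of 17 tested members lower and none higher (52.9% called, beside 7.68% of all genes), with a median of -0.45. Without MCF10A EV replicate 4 or MDA-MB-231 EV replicate 3, 5 histones were lower. Ribosomal proteins had 5 of 46 lower (10.9% called, near the 7.68% of all genes), with a median of -0.15. That count was 2 without MCF10A EV replicate 1, 4 or 5 or MDA-MB-231 EV replicate 1, 4 or 5, 3 without MCF10A EV replicate 6 or MDA-MB-231 EV replicate 2 or 3, and 8 without MCF10A EV replicate 3. For Serpina3a, Ptcra, Acta1 and Hist1h2ak the difference within each number range did not pass, and the second test gave values from -0.59 to 0.73. MHC genes of antigen presentation had 3 of 14 lower (21.4% called, beside 7.68% of all genes), but 8 of the 14 had a positive value and the median was 0.02. The called falls were led by H2-T23 (-0.43; adjusted p = 6.81e-05; 23.7% of its words shared), and Slc7a11, the cystine importer, fell by 0.87. In the libraries named for MDA-MB-231 these stood at -0.41 and -0.88. Both genes were parted by the library numbers too. The same held for Arntl, Per1, Gm129, Ppp1r3g, Pfkfb3, Tat, Klf15, Coq10b, Dnmt3b and Smarcd1 above. For none of these did a difference within a number range pass.

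**Figure D3:**
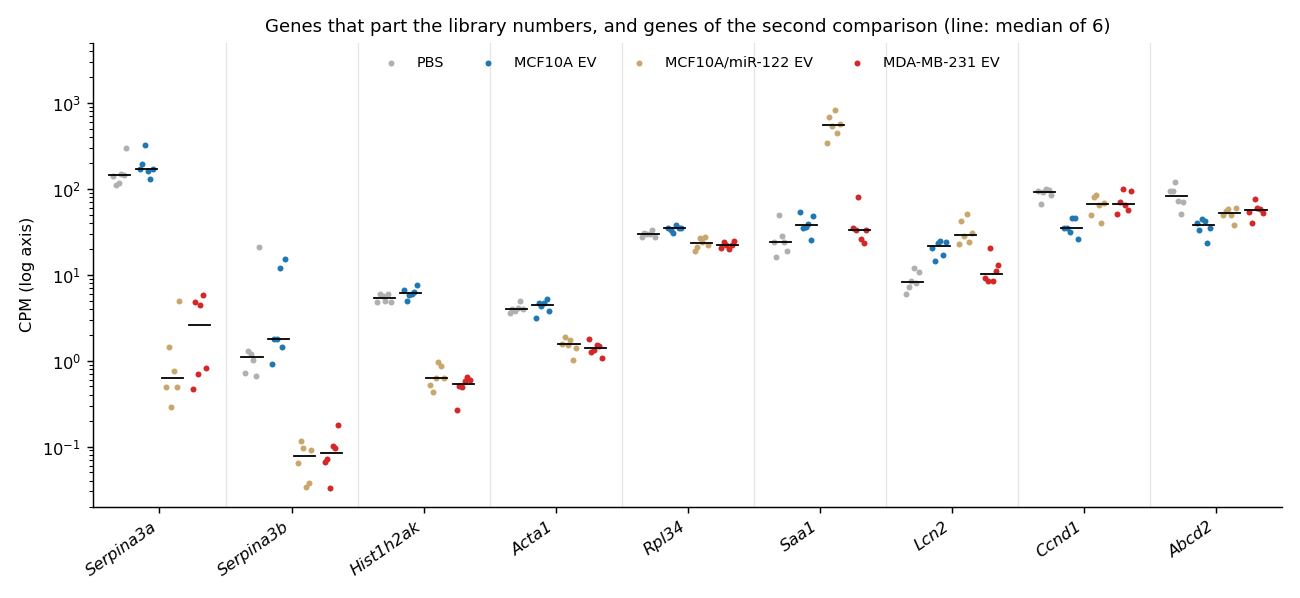
CPM (log axis) of 9 genes in every library of the 4 treatment labels, 6 points each, with the median as a line. Serpina3a, Serpina3b, Hist1h2ak, Acta1 and Rpl34 part PBS and MCF10A EV from the other two groups, whereas Saa1 is high in MCF10A/miR-122 EV alone, and Ccnd1 and Abcd2 are lowest in MCF10A EV by median.

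Markers of other cells were read beside these lists. In bulk liver, fewer cells of a type and less RNA per cell cannot be told apart. Hepatocyte markers summed to 178000 to 194000 CPM with MDA-MB-231 EV and 167000 to 196000 CPM with MCF10A EV, macrophage markers to 582 to 828 and 614 to 697 CPM, and stellate and fibroblast markers to 228 to 478 and 278 to 521 CPM, with no called macrophage, endothelial or stellate gene. Erythroid markers summed to 564 to 1020 CPM (median 669) with MDA-MB-231 EV and 621 to 3080 CPM (median 947) with MCF10A EV. Neutrophil markers summed to 1.91 to 3.12 and 1.91 to 9.24 CPM. Both lists overlapped between the groups, and neither had a called member. The lymphocyte markers Ms4a1, Ncr1 and Rag1 were at 0 counts in all 12 libraries, and Ptcra was the only called gene of that list. Muscle markers summed to 3.77 to 6.18 CPM against 7.44 to 10.4 CPM without overlap. Of the 3 tested members only Acta1 was called, at means of 1.41 and 4.28 CPM, so much of the gap lay in this gene. Des (-0.35; adjusted p = 0.19) and Mylpf (-0.12; adjusted p = 0.85) did not pass. The part of these cells in the other results was not tested.

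**Figure D4:**
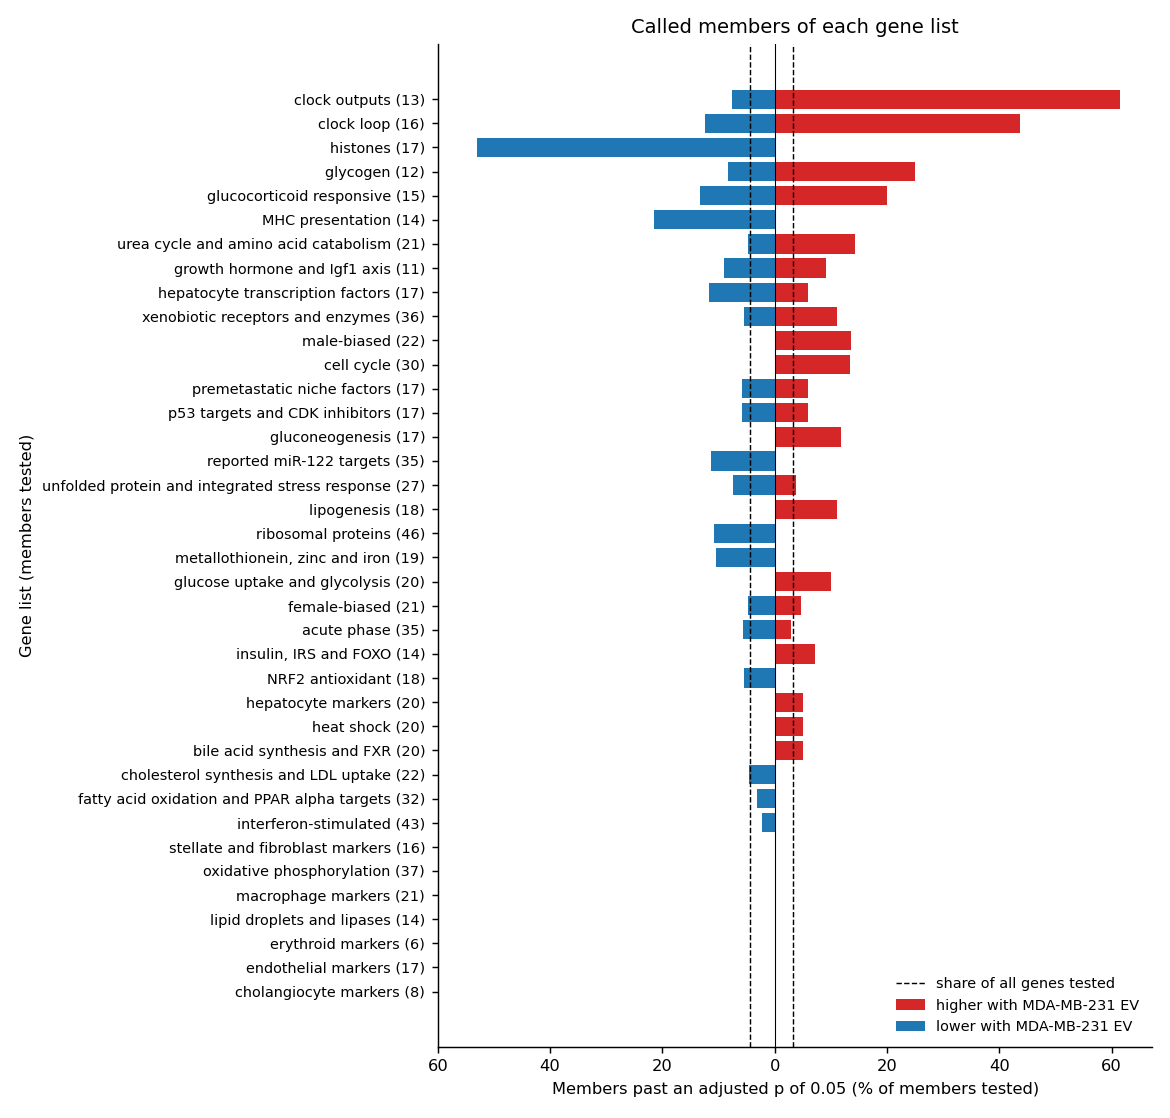
Percentage of tested members called in each gene list with at least 5 tested members, higher to the right and lower to the left, with the shares of all genes (3.24% and 4.44%) as dashed lines. Over both directions together, the called shares are 69.2% of clock outputs, 56.2% of the clock loop and 52.9% of histones. The macrophage, endothelial and stellate lists have no called member.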

How the data were processed

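Liver RNA was made into stranded mRNA libraries after TRIZOL extraction, per the labels' protocols. The authors deposited whole-number read counts per gene symbol, without normalization. Reads went through bcl2fastq 2.18.0.12 and TopHat2 on build mm9, per the submitters' processing notes. Counting tool, annotation and strand setting were not given in the sources used here, so overlapping, antisense and multi-copy genes are uncertain. Of 23240 rows, 27 that share 11 symbols (0.0744% of counts) were left out.

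Counts of all 24 libraries (21.3 to 33.7 M each) were fitted with edgeR 4.0.16 in R 4.3.3: TMM scaling, filterByExpr by group, a mean per treatment label, the two-sided quasi-likelihood F test and Benjamini-Hochberg adjustment over 13773 genes, with a threshold of 0.05. SE is the log2 ratio's size over the root of F. Levels are given in CPM on TMM-scaled library sizes, except those of Alb and the summed cell markers, which are on library totals without TMM scaling. The script was tested on simulated data. Alternatives were RLE scaling, DESeq2 1.42.0, limma-voom (limma 3.58.1), other filters, the 12 libraries alone, thinned counts, a block on replicate number, identity from library names and leaving out each library. Shared sequence is the percent of 32-base words of a gene's GENCODE M21 transcripts that another gene also holds.

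Groups follow the treatment label. The groups compared and the gene lists were chosen with earlier results of these data known. Genes to name were, by rule, 12 rises and 12 falls of greatest size among called genes whose groups did not overlap (mean log2 CPM 1 or more, predicted loci left out), 3 members by p from each list with a called member, and up to 5 genes of the second test. It gave 112 entries. The selection printed from them, the other members of the clock and glycogen lists, and Pck1, Top2a, Dgat2, Arnt, Saa2, Hp, Orm2, Sema6b, Abcd2, Taf10, Bckdk, Nr2f2 and Insig2 where outside the rule, were chosen after their values were seen. A few genes are not reported here.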

Additional observations from a re-analysis of the deposited data

Results flagged for a closer look

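Among 130 sets of 6 values (65 genes in the 2 groups), 10 had a library whose gap to the next took most of the range (over 0.625, Dixon's 95% critical value for 6). Chance flags about 1 set in 20. MDA-MB-231 EV replicate 6 was highest for Ccne1 at 3.35 CPM (next 1.15), for Gdap10 at 8.51 CPM (next 4.7) and for Ppp1r3g at 35.6 CPM (next 24.4). MDA-MB-231 EV replicate 3 was highest for Irs1 at 58.3 CPM (next 44.4), for Saa1 at 80.6 CPM (next 35.3) and for Saa2 at 56.8 CPM (next 20). Dbp was highest in MDA-MB-231 EV replicate 4 at 127 CPM (next 90.5). Nr1d1 was lowest in MDA-MB-231 EV replicate 5 at 115 CPM (next 137), and Taf10 in MDA-MB-231 EV replicate 1 at 11.8 CPM (next 15.8). In MCF10A EV, replicate 3 was highest for Serpina3a at 325 CPM (next 196).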

How the results depend on the processing

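Taking the identity from the library names gave 2237 called genes, 1037 higher and 1200 lower, of which 854 were also called by the labels, and 153 in the second test. Under it Cry1 was at 0.11, Nr1d1 at -0.044, Hp at 0.22, Lcn2 at 0.69 and Saa1 at 3.84 on the log2 scale, each with the opposite sign. The second test gave 71 genes with DESeq2, and it could not be run on the 12 libraries alone. Saa2 was at -0.032 with limma-voom. For these changes the cause was not tested.

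Without 1 library, called genes numbered 711 to 1125, higher genes 259 to 508, lower genes 439 to 628 and genes of the second test 8 to 18. Saa1 ran from -0.382 to 0.08 and Saa2 from -0.339 to 0.262, none past the threshold. Of 58 called genes with printed values 46 kept the call without any single library. All 58 kept it with RLE scaling, DESeq2 and both filters, 57 with the 12 libraries alone and with thinned counts, 56 with limma-voom and 49 with the identity from library names.

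Replicate numbers did not pair the libraries: correlations of same-numbered deviations ran from -0.267 to 0.219, and 1 of 6 libraries correlated best with its own number. With the replicate block 1155 genes were called and 24 in the second test, Saa2 was at -0.069, and Nr1d1 (adjusted p = 0.0654) and Cyp4a12a (adjusted p = 0.0686) lost the call. Genes under about 1 CPM, such as Ccne1 and Ccnb2, are limited by depth.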

Other observations

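In other lists a few members moved in mixed directions, chosen here after their values were seen. Of 27 genes of the unfolded protein and integrated stress response, Herpud1, a factor of protein degradation at the endoplasmic reticulum, was higher (log2 fold change 0.71 ± 0.15, SE; adjusted p = 0.00476), and Xbp1, a transcription factor of that response, and the chaperone gene Calr were lower (-0.50 and -0.28). In the libraries named for MDA-MB-231 these stood at 0.82, -0.51 and -0.47. Of 11 genes of the growth hormone axis, the receptor gene Ghr was higher by 0.31 and Stat5a, a transcription factor downstream of it, fell by 0.60. With the libraries named for MDA-MB-231 Ghr, at 0.21, did not pass (adjusted p = 0.0533), whereas Stat5a, at -0.65, was called (adjusted p = 0.00241). The called shares were 11.1% of the stress response list and 18.2% of the growth hormone list, beside 7.68% of all genes.

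Amino acid handling had 3 of 21 members higher and 1 lower (19% called, beside 7.68% of all genes). Beside Tat, the transporter genes Slc38a2 and Slc38a4 rose by 0.79 and 0.33 on the log2 scale, and Nags, which makes the activator of the urea cycle, fell by 0.36. Of 17 tested factors reported in premetastatic niches, the chemokine gene Cxcl12 was higher by 0.33 and Lcn2 lower (11.8% called). Of 43 interferon-stimulated genes Irgm2 was lower (-0.64) and none higher (2.33% called). The libraries named for MDA-MB-231 gave 1.21 for Slc38a2, 0.29 for Cxcl12 and -0.62 for Irgm2.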
